A study of Mus musculus with 6 samples.

Results

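The miRNAs described here are the products of the 6 hairpins embedded in the mouse Hox gene clusters: miR-10a, miR-10b, miR-196a, miR-196b and miR-615. They were picked by name from a deposited table of miRNA read counts, and 11 of its 1482 rows carried such a name. Of these, 5 are 5p arms and 6 are 3p arms, since miR-196a comes from 2 hairpins with the same 5p and different 3p sequences. The libraries were made from mouse spinal cord, about 1 cm around vertebral level T10, taken on day 2 after surgery. By the deposited labels, the 3 control-labelled mice had their vertebral arch opened (laminectomy) with the cord left intact. The 3 SCI-labelled mice (SCI, spinal cord injury) are described as having the same opening followed by a moderate contusion. It came from a 10 g weight falling 20 mm. By these descriptions all 6 animals shared the laminectomy. The sources used here do not name their strain, sex or age.

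Hox genes encode homeodomain transcription factors that are switched on in nested domains along the body and so record position from head to tail. The miRNA hairpins between them are transcribed in similar domains, and miR-10 and miR-196 in turn repress Hox mRNAs; the cleavage of Hoxb8 mRNA directed by miR-196 is the textbook case. In the adult nervous system these miRNAs are known for being far more abundant in spinal cord than in brain.

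Positions are given on GRCm38, the assembly that mm10 denotes, from GENCODE release M21. Mir10a lies at chr11:96317165-96317274 on the plus strand between Hoxb5 and Hoxb4, 992 bp before Hoxb4 and outside any annotated transcript. Mir10b lies at chr2:74726070-74726137 on the plus strand, in an intron of Hoxd4 and of the overlapping Hoxd3. Mir196a-1, at chr11:96265164-96265265, sits 6191 bp before Hoxb9 on the same strand and in no annotated transcript. Mir196a-2, at chr15:102973350-102973434, lies between Hoxc10 and Hoxc9 and inside an intron of 1 long Hoxc5 transcript. Mir196b, at chr6:52230081-52230165 on the minus strand, lies 1031 bp from Hoxa10. It overlaps an exon in 2 Hoxa9 transcripts and an intron in 1 other. Mir615, at chr15:103014910-103015001, is in an intron of Hoxc5. Mir10 hairpins therefore lie next to or within the Hox4 genes of their clusters, and Mir196 hairpins next to or within the Hox9 genes.

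**Figure D1:**
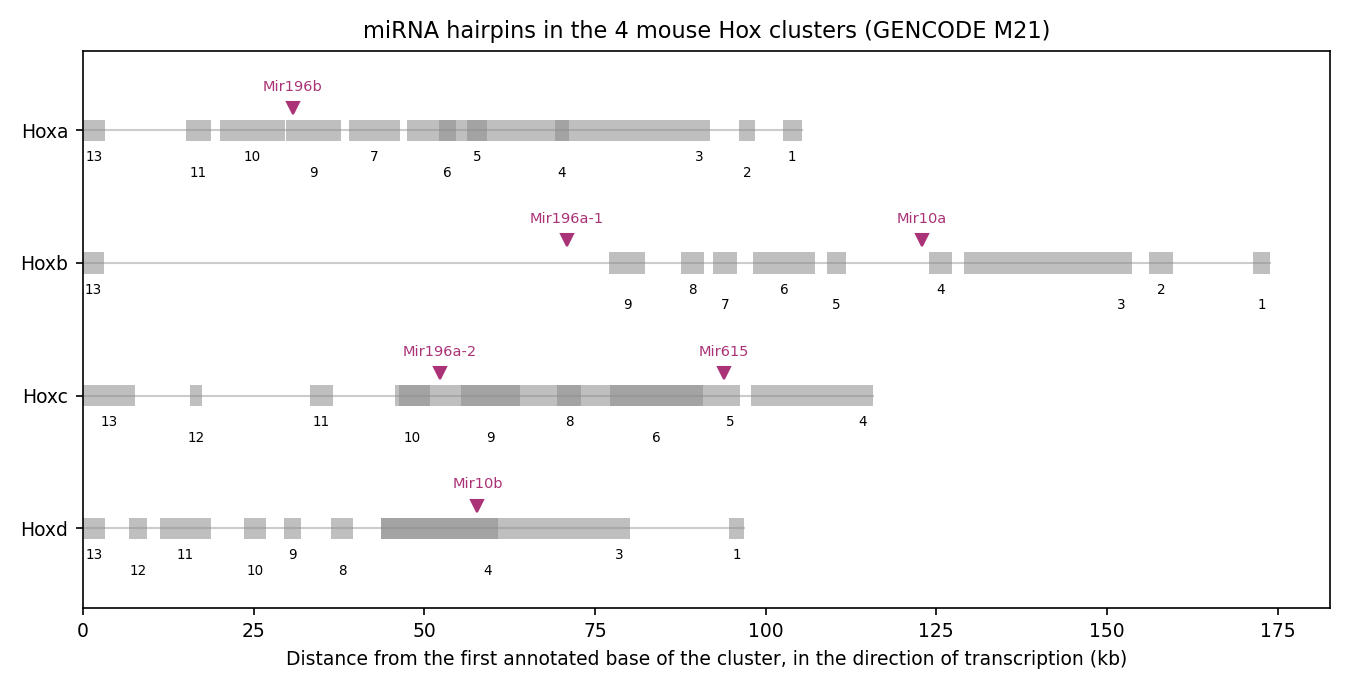
Hairpins (triangles) and Hox genes (grey bars, numbered by paralog group) of the 4 mouse clusters, drawn to scale as distance in kb from the first annotated base of each cluster in the direction of transcription. Mir196 hairpins lie next to or within the genes numbered 9 in 3 clusters, and Mir10 hairpins next to or within those numbered 4 in 2 clusters.

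All 11 rows had a mature sequence in RefSeq (GRCm38.p6). The sequences are shown because they set which members share targets and which could share reads. Each is written 5′ to 3′, and the capitals mark the seed, bases 2 to 8, through which a miRNA mainly recognizes its targets. The arms that carried most of the counts were these.
mmu-miR-10a-5p: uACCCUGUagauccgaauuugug
mmu-miR-10b-5p: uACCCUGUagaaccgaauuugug
mmu-miR-196a-5p: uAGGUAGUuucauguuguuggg
mmu-miR-196b-5p: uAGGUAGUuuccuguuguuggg
mmu-miR-615-3p: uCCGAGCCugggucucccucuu

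These 5 arms fell into 3 seed groups. miR-10a-5p and miR-10b-5p shared the seed ACCCUGU and differed at 1 of 23 bases, written U12A (counted from the 5′ end of miR-10a-5p, miR-10a base first). Likewise miR-196a-5p and miR-196b-5p shared AGGUAGU and differed at 1 of 22 bases, A12C counted from the 5′ end of miR-196a-5p. No other row of the table with a RefSeq sequence had the seed of miR-10, miR-196 or miR-615-3p. With 1 difference outside the seed, reads of a pair can be told apart only if the authors' alignment demanded that base, and the sources used here do not name the mismatch allowance. Values of the single paralogs are therefore uncertain in how reads were divided between them, and sums over each pair are given as well.

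The opposite arms, most of which are normally discarded when the duplex is loaded into Argonaute, have seeds of their own. They are shown because the arms of each hairpin are compared with each other.
mmu-miR-10a-3p: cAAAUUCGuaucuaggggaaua
mmu-miR-10b-3p: cAGAUUCGauucuaggggaaua
mmu-miR-615-5p: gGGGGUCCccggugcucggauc
mmu-miR-196a-1-3p: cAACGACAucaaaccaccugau
mmu-miR-196a-2-3p: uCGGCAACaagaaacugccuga
mmu-miR-196b-3p: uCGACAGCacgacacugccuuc

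These 3p arms of miR-10a and miR-10b differed at 3 of 22 bases (A3G, U9A and A10U, miR-10a base first, counted from its 5′ end), so they separate the 2 hairpins better than the 5p arms do.

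The direction of the group labels needs care. Samples with the SCI label are stored under column names starting with Normal. All 5 listed markers of injury and leukocytes passed the edgeR test as lower under the SCI label. They summed to 76603 to 131380 CPM (counts scaled to a common library size) in control-labelled libraries and to 11361 to 12893 CPM in SCI-labelled ones. Among them is miR-21a-5p, widely known to rise after tissue injury, at 100083 ± 27262 CPM under the control label and 12003 ± 774 CPM under the SCI label (SD, n = 3 each). The 3 red blood cell and the 3 mesenchyme markers were lower too, and of 4 neuronal markers 3 were higher. Of 3 oligodendrocyte and 4 skeletal muscle markers, edgeR, DESeq2 and limma voom each called 0, and 0 had an unadjusted p under 0.05 in edgeR. None of these 22 markers was at 0 counts in all libraries, and the neuronal and oligodendrocyte markers that define the tissue were present in each. Groups are called by their labels throughout, and every direction below is that of the labels as deposited. Whether the labels of the 2 groups were exchanged was not tested. Total counts ran from 5568491 to 8889977 per library. The third control-labelled library stood apart from the others of its group. Its skeletal muscle markers summed to 37774 CPM against 8283 and 11916 CPM, and its red cell markers to 8995 CPM against 32182 and 25738 CPM. Its neuronal markers summed to 93317 CPM against 73584 and 64861 CPM, and its oligodendrocyte markers to 8049 CPM against 9629 and 10923 CPM. Of these, miR-124-3p (2008 against 660 and 725 CPM) and miR-219a-5p (335 against 69.7 and 78.2 CPM) were highest in it. miR-128-3p and miR-219a-2-3p were lowest in it. In bulk tissue, fewer cells of a type and less RNA per cell cannot be told apart.

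Levels are CPM scaled by TMM, a factor that evens out differences in composition between libraries. They hold no term for length, and mature members are 22 or 23 bases long. How well each sequence ligates during library preparation also enters a level and was not measured. Group means of the members ran from 0.71 to 156415 CPM. miR-10b-5p stood first in every library, followed by miR-10a-5p and miR-615-3p. Next came miR-196b-5p, miR-196a-5p and miR-10b-3p, and neighbours in this order overlapped in range within each group. Below them were miR-10a-3p, miR-196a-1-3p and miR-615-5p. miR-196b-3p and miR-196a-2-3p closed the order, at 0.47 to 2.83 and 0.72 to 1.47 CPM, and did not differ beyond their spread. The range of miR-196b-3p also met that of miR-615-5p under the control label.

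**Figure D2:**
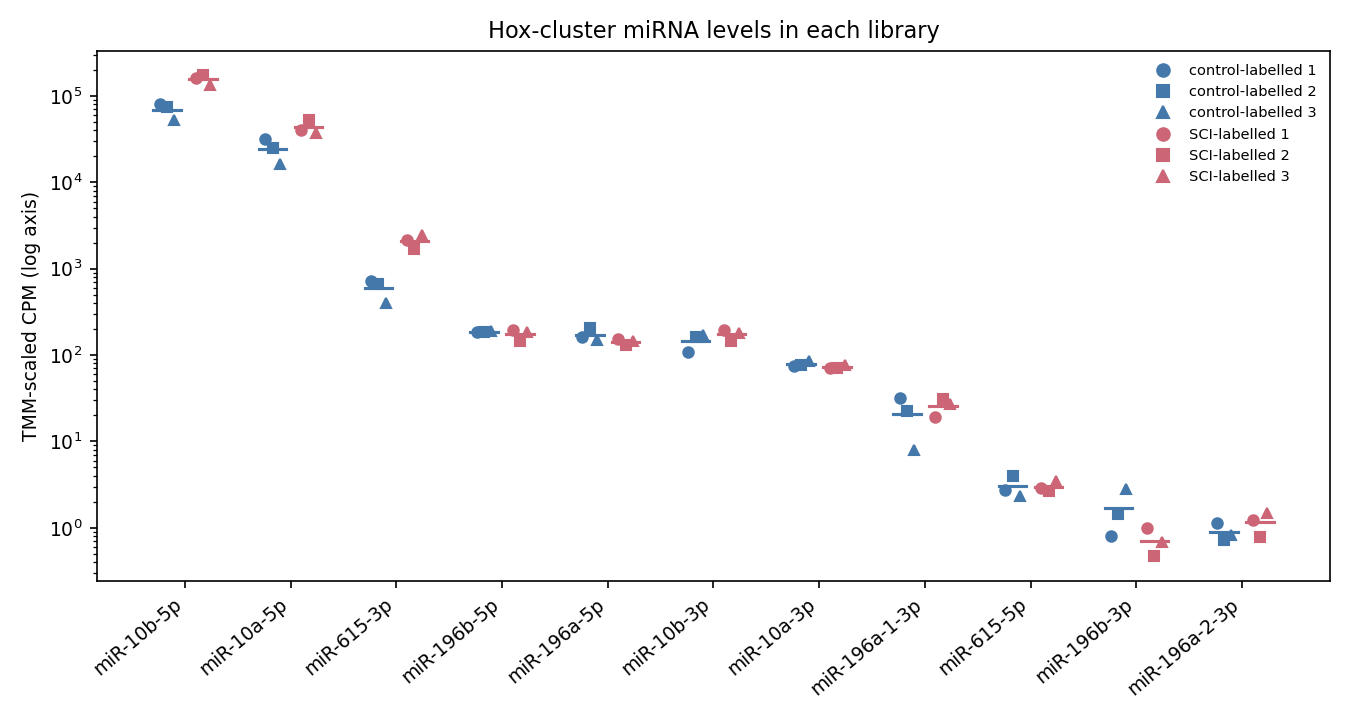
TMM-scaled CPM (log axis) of the 11 Hox-cluster rows in each of the 6 libraries, with points for libraries and bars for group means. The SCI-labelled points lie above all control-labelled points for miR-10b-5p, miR-10a-5p and miR-615-3p, and the groups overlap in the other 8 rows.

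Both miR-10 guide strands and miR-615-3p were higher in the SCI-labelled libraries, while no miR-196 row passed the test. A row was called when edgeR's quasi-likelihood test, adjusted by Benjamini-Hochberg over all tested rows, gave p under 0.05. Of the 11 rows, 9 had enough counts to be tested. Of these, 3 were higher, 0 were lower and 6 were not called. At an unadjusted p under 0.05 the count was the same 3, against 285 of all 614 tested rows. DESeq2 and limma voom called those 3 as well, among 247 and 286 called rows. By the edgeR test 242 of all 614 tested rows were called, which is 39.4%, with 16.3% higher and 23.1% lower. The members' 3 of 9 stood near the overall share of calls. Among the 90 rows of at least 1000 CPM, the class that holds the 3, 30% were called higher. The 9 tested members had a median log2 change of 0.24, against -0.07 over all tested rows. Groups did not overlap in 3 of 9 members and in 51.3% of all tested rows.

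miR-10b-5p, from the Hoxd cluster, was the most abundant member. It stood at 80640, 74637 and 53273 CPM in control-labelled libraries 1, 2 and 3, and at 160375, 175935 and 132934 CPM in SCI-labelled libraries 1, 2 and 3. Every SCI-labelled library exceeded every control-labelled one, and the third control-labelled library was the lowest of all. Group means were 69517 ± 14384 CPM for the control label and 156415 ± 21772 CPM for the SCI label (SD, n = 3 each). The level was 2.25-fold higher (log2 1.17, SE 0.21, 95% interval 0.68 to 1.66; edgeR adjusted p = 0.0033). By mean level it ranked second among all rows of the control-labelled group and first in the SCI-labelled group. The call held in each of 16 alternative analyses, with log2 changes from 1.03 to 1.35. In 1 of these 16 the row tested was the sum of miR-10a-5p and miR-10b-5p.

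miR-10a-5p, from the Hoxb cluster, moved the same way with a wider spread. Its levels were 31588, 24757 and 16453 CPM in control-labelled libraries 1, 2 and 3, and 40826, 52930 and 37645 CPM in the SCI-labelled ones. The groups did not overlap, with control-labelled library 3 again the lowest. Means were 24266 ± 7580 and 43800 ± 8065 CPM (SD, n = 3 each). The change was 1.81-fold (log2 0.85, SE 0.26, 95% interval 0.26 to 1.45; edgeR adjusted p = 0.0321). This call was lost without the second control-labelled library (edgeR adjusted p = 0.0813) or without SCI-labelled library 1 (0.0605), 2 (0.126) or 3 (0.063). The log2 change stayed at 0.68 or above in every alternative, 1 of which tested the sum with miR-10b-5p.

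Counted together, the 2 miR-10 guides that share the seed ACCCUGU made up 10.6%, 9.86% and 8.05% of all counts in control-labelled libraries 1, 2 and 3. In SCI-labelled libraries 1, 2 and 3 they made up 20.6%, 20.8% and 16.9%. Counting error was small beside this spread, as in control-labelled library 3, where the 95% Wilson interval ran from 8.03% to 8.06%. Such an interval covers counting error only. The mean share was 9.51% ± 1.33 under the control label and 19.4% ± 2.16 under the SCI label (SD, n = 3 each; two-sided exact permutation p = 0.1, the smallest that 3 against 3 libraries allow). About 1 count in 5 of an SCI-labelled library thus came from this seed. Because a share this large enters the scaling, factors were also computed without the Hox-cluster rows, and the log2 changes were then 1.25 for miR-10b-5p and 0.92 for miR-10a-5p (edgeR adjusted p = 0.00497 and 0.0362).

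The ratio of miR-10b-5p to miR-10a-5p, which no scaling affects, was 2.55, 3.01 and 3.24 in control-labelled and 3.93, 3.32 and 3.53 in SCI-labelled libraries. The groups did not overlap, although control-labelled library 3 and SCI-labelled library 2 were close. The mean log2 ratio was 0.30 higher under the SCI label (exact permutation p = 0.1, the smallest possible; 0.18 adjusted over the 9 ratios computed). The same ratio between the 3p arms, which differ at more bases, was 1.44, 2.13 and 1.96 against 2.71, 2.07 and 2.35. These groups overlapped, with a log2 difference of 0.38 (exact permutation p = 0.2, 0.225 adjusted over 9 ratios).

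miR-615-3p, from the Hoxc5 intron, showed the largest change of the members. It had 4458, 3669 and 3444 counts in control-labelled libraries 1, 2 and 3, and 17143, 10894 and 21551 in SCI-labelled ones. On the CPM scale this was 714, 664 and 406 against 2124, 1689 and 2441, with a wide gap between the groups. The third control-labelled library was again the lowest. The change was 3.51-fold (log2 1.81, SE 0.26, 95% interval 1.21 to 2.41; edgeR adjusted p = 0.00122), and 4 of the 614 tested rows rose by more. It was called in all 16 alternatives, at log2 1.64 to 2.02. The lowest of these values came without the third control-labelled library (edgeR adjusted p = 4.89e-05).

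**Figure D3:**
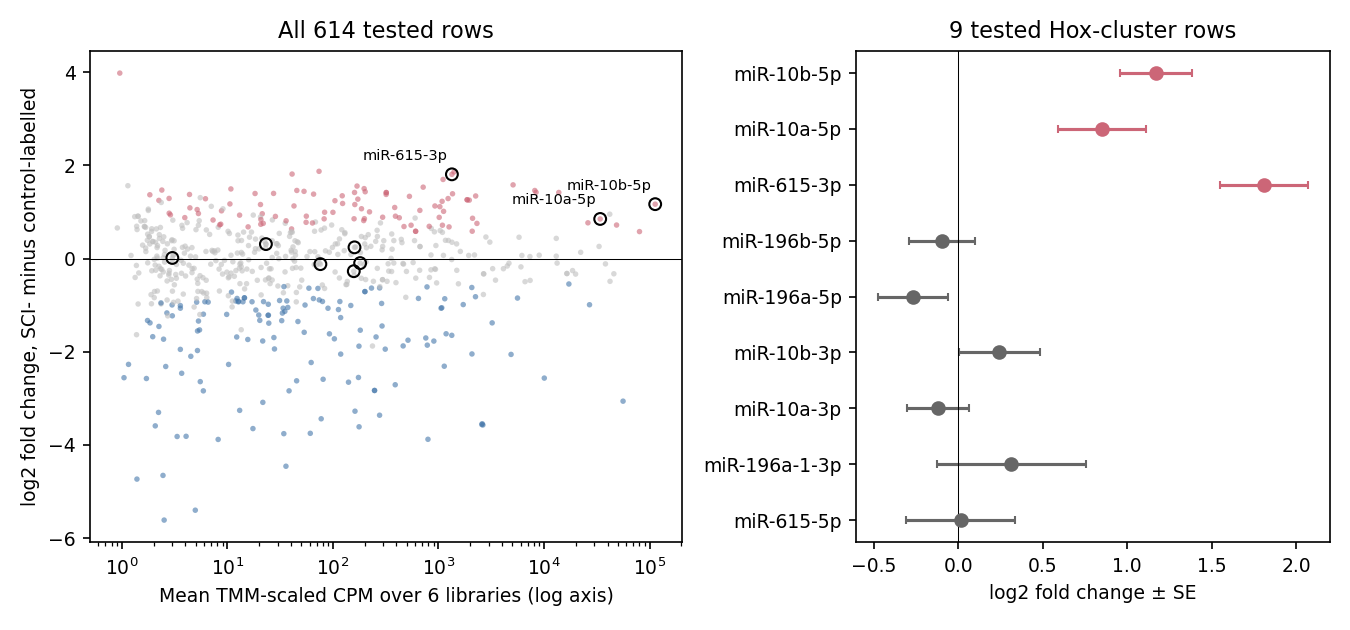
Left, log2 fold change (SCI- minus control-labelled) against mean TMM-scaled CPM (log axis) for all 614 tested rows, red for called higher, blue for called lower and grey for not called, with Hox-cluster rows circled. Right, log2 fold change ± SE of the 9 tested members, where miR-10b-5p (1.17), miR-10a-5p (0.85) and miR-615-3p (1.81) lie above 0 and the other 6 were not called.

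Neither miR-196 guide was called. miR-196b-5p, from the Hoxa cluster, was at 186, 185 and 191 CPM in control-labelled libraries and 194, 147 and 184 CPM in SCI-labelled ones. SCI-labelled library 2 was the low one, and the other 5 libraries lay between 184 and 194 CPM. Its log2 change was -0.10, with a 95% interval of -0.54 to 0.35 (edgeR adjusted p = 0.724). Its sign turned with upper quartile scaling (0.03) and without SCI-labelled library 2 (0.08), so no direction is given for it.

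miR-196a-5p, the shared product of a Hoxb and a Hoxc hairpin, was at 163, 205 and 148 CPM against 154, 130 and 145 CPM. The groups overlapped. The log2 change was -0.27, with a 95% interval of -0.74 to 0.20 (edgeR adjusted p = 0.339). For both miR-196 guides the interval ended below the 2-fold rise at which a log2 change equals 1. That does not show that their levels were equal between the groups. Together the miR-196 guides made up 0.0369% ± 0.00339 of counts under the control label and 0.0311% ± 0.00534 under the SCI label (SD, n = 3 each; two-sided exact permutation p = 0.2). Summed to 1 row their log2 change was -0.18 (edgeR adjusted p = 0.494).

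The 2 hairpins behind miR-196a-5p can be told apart only by their 3p arms. miR-196a-1-3p, from the Hoxb hairpin, had 197, 125 and 68 counts in control-labelled and 154, 198 and 239 in SCI-labelled libraries. The third control-labelled library was the low one here too, at 8.01 CPM against 31.5 and 22.6 CPM. The log2 change was 0.31 with a 95% interval of -0.69 to 1.32 (edgeR adjusted p = 0.608), and -0.05 without that library. It was 0.81 without control-labelled library 1 and 0.52 without SCI-labelled library 1, so no direction is given. miR-196a-2-3p, from the Hoxc hairpin, had 4 to 7 counts in control-labelled and 5 to 13 in SCI-labelled libraries and was too low to be tested. Its hairpin and Mir615 lie inside introns of the same long Hoxc5 transcript.

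The ratio of miR-196a-5p to miR-196b-5p was 0.878, 1.11 and 0.778 in control-labelled and 0.792, 0.887 and 0.787 in SCI-labelled libraries. These values overlapped, and the log2 difference was -0.15 (exact permutation p = 0.7, also 0.7 adjusted over 9 ratios).

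A pair of ratios was added after the values were seen, to compare the seed groups with each other. There were 322, 255 and 206 miR-10 guide counts per miR-196 guide count in control-labelled libraries, and 579, 826 and 518 in SCI-labelled ones. The log2 ratio was 1.29 higher under the SCI label, with no overlap (exact permutation p = 0.1, the smallest possible; 0.18 adjusted over 9 ratios). Per miR-196 guide count there were 2.05, 1.70 and 1.20 miR-615-3p counts in control-labelled libraries, and 6.11, 6.10 and 7.42 in SCI-labelled ones. This log2 ratio was 2.02 higher, with the same exact permutation p of 0.1.

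None of the opposite arms of the hairpins whose major arm rose was called. miR-10b-3p was at 107, 163 and 169 CPM in control-labelled and 193, 146 and 182 CPM in SCI-labelled libraries. The groups overlapped, and the log2 change was 0.24 (95% interval -0.31 to 0.79; edgeR adjusted p = 0.461). miR-10a-3p was at 74.5, 76.6 and 86.4 CPM against 71.0, 70.4 and 77.5 CPM. Its log2 change was -0.12 (95% interval -0.54 to 0.30; edgeR adjusted p = 0.644), and its sign turned with upper quartile scaling. miR-615-5p had only 17, 22 and 20 counts in control-labelled and 23, 17 and 31 in SCI-labelled libraries. Its log2 change was 0.01 (95% interval -0.72 to 0.75; edgeR adjusted p = 0.974).

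The difference between arms was tested with edgeR's diffSpliceDGE over the 179 hairpins with both arms tested. Of 358 arms 7.82% were called, in 27 of the 179 hairpins (15.1%). All 3 Hox-cluster hairpins that could be tested were among them, and in each the minor arm was the arm called. The test sets each arm against its whole hairpin, and a gap counts as called where at least 1 arm passed. The major arm outnumbered the minor one 447-fold for miR-10a, 706-fold for miR-10b and 445-fold for miR-615. It thus made up nearly all of its hairpin, so only the minor arm could readily be called. The gap is the log2 change of the major arm minus that of the minor one, and all 3 gaps were positive. For miR-615 the gap was 1.80 (adjusted p = 0.00516, for miR-615-5p). For miR-10a it was 0.97 (adjusted p = 0.029, for miR-10a-3p) and for miR-10b 0.93 (adjusted p = 0.0391, for miR-10b-3p). Leaving out 1 library, which also leaves fewer libraries to test, undid some of these calls. The gap of miR-615 was called in 11 of 12 alternatives and missed without SCI-labelled library 3 (adjusted p = 0.0507). The miR-10a call was lost without control-labelled library 2 (0.0612) or SCI-labelled library 1, 2 or 3 (0.129, 0.335 and 0.126). In the same order the miR-10a gap was then 1.01, 1.01, 0.771 and 1.12, against 0.97 with all libraries. The miR-10b call was lost without each of these 4 libraries (0.0862, 0.129, 0.43 and 0.126) and without control-labelled library 3 (0.0506). In the same order the miR-10b gap was then 0.903, 0.998, 0.709, 1.07 and 0.645, against 0.93 with all libraries. The cause of these losses was not tested. With no filter on low counts both miR-10 calls were lost (0.0853 and 0.0962), and that of miR-10b also with scaling by library totals (0.0527). The gaps kept their sign in all 12 alternatives, at 0.65 log2 or more.

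The ratios of counts by library show how wide these gaps were. There were 262, 167 and 172 miR-615-3p counts per miR-615-5p count in control-labelled libraries and 745, 641 and 695 in SCI-labelled ones, far apart. For miR-10a the 5p to 3p ratio was 424, 323 and 190 against 575, 752 and 486, with no overlap. For miR-10b it was 753, 457 and 314 against 833, 1206 and 731. Here control-labelled library 1 exceeded SCI-labelled library 3. miR-196b could not enter the test because miR-196b-3p had only 5, 8 and 24 counts in control-labelled and 8, 3 and 6 in SCI-labelled libraries. Its 5p to 3p ratios, 232, 128 and 67.4 against 196, 316 and 271, overlapped.

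**Figure D4:**
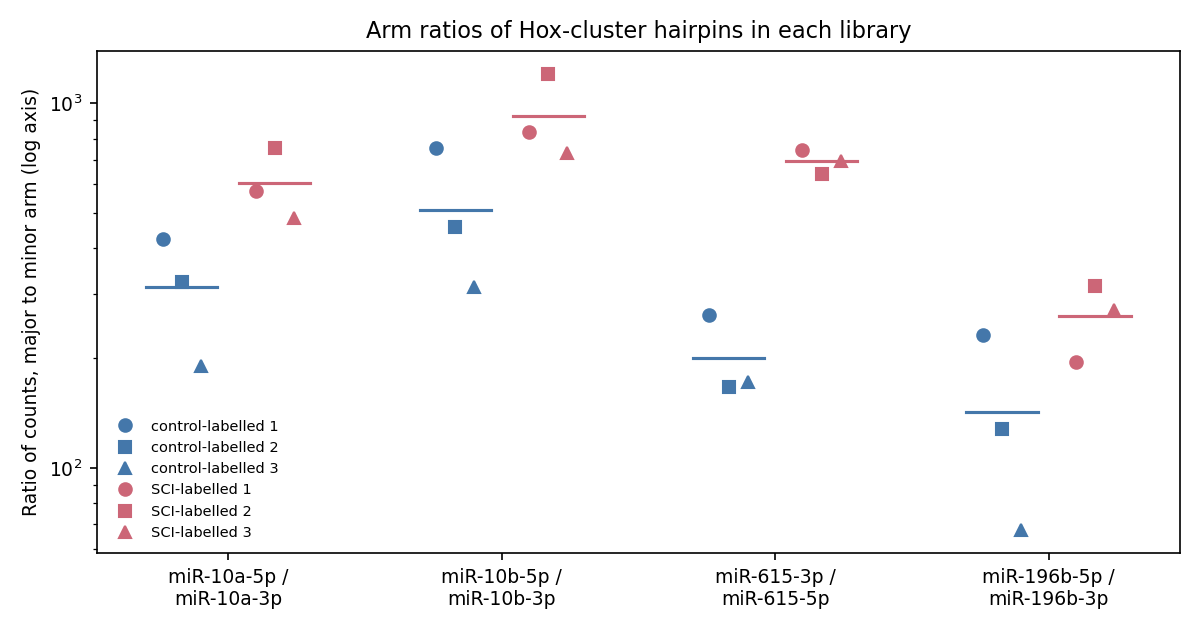
Count of the major arm per count of the minor arm (log axis) in each library, for 4 Hox-cluster hairpins, with points for libraries and bars for group means. The groups are apart for miR-615 (167 to 262 against 641 to 745) and miR-10a, and overlap for miR-10b and miR-196b.

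Such a gap was not particular to Hox-cluster hairpins. In 42 of the 179 hairpins the major arm was called higher. In 13 of these 42, the 3 above included, the gap was also called and was positive. The median gap over all 179 hairpins was 0.05 on the log2 scale.

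The closest relatives of miR-10 outside the Hox clusters are miR-99, miR-100 and miR-125, which descend from the same ancient hairpin and are known as regulators of growth signalling and cell differentiation. Their seeds are related and not the same, as these sequences show.
mmu-miR-99a-5p: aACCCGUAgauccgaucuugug
mmu-miR-100-5p: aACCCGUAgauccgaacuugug
mmu-miR-125b-5p: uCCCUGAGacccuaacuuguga

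Of the 11 rows of this family, all tested, 1 was higher, 1 was lower and 9 were not called, with a median log2 change of -0.16. The higher row was miR-99a-5p, at 45696, 38654 and 25819 CPM in control-labelled and 53891, 63500 and 64266 CPM in SCI-labelled libraries (log2 0.72; edgeR adjusted p = 0.0366). miR-100-5p was at 34751, 30382 and 25469 CPM against 35541, 40050 and 33064 CPM and was not called (log2 0.26; edgeR adjusted p = 0.293). miR-125b-5p was not called either, with a log2 change of -0.18 (edgeR adjusted p = 0.478). The lower row was miR-125a-3p, at 16.7 ± 4.43 and 8.80 ± 0.756 CPM (SD, n = 3 each; log2 -0.92, edgeR adjusted p = 0.0248).

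The seed of miR-196, AGGUAGU, occurs in let-7a-5p and let-7i-5p shifted by 1 base, at their bases 3 to 9. The let-7 family is known for promoting differentiation and is abundant in adult nervous tissue.
mmu-let-7a-5p: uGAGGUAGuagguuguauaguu
mmu-let-7i-5p: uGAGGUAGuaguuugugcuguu

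Of the 10 listed let-7 family 5p rows, 9 were tested. edgeR called 0 of them, DESeq2 called 0 and limma voom 2. By edgeR 1 had an unadjusted p under 0.05 (let-7d-5p, log2 -0.54, edgeR adjusted p = 0.0678), and their median log2 change was -0.32. The 3 most abundant, let-7i-5p, let-7f-5p and let-7g-5p, had log2 changes of -0.32, -0.49 and -0.11.

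The rows most like 3 of the members were named by the root mean square difference between centred log2 levels over the 6 libraries, among 221 other rows of at least 100 CPM. A value of 0 would mean the same profile, and with 2 groups that differ it mostly reflects the change between them. Closest to miR-10b-5p were miR-139-5p (0.16), miR-204-5p (0.16), miR-149-5p (0.21), miR-369-5p (0.22) and miR-129-5p (0.22), all of them called higher. miR-204-5p, for example, was at 833, 767 and 547 CPM against 1802, 1661 and 1787 CPM, with the third control-labelled library lowest, as for miR-10b-5p. miR-615-3p was closest to miR-1298-5p (0.23), miR-434-5p (0.27) and miR-128-3p (0.27), also all called higher. miR-196b-5p was closest to miR-140-5p (0.11), miR-186-5p (0.11) and miR-148b-3p (0.13), and none of these was called.

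Across analysis settings the 3 members called higher under the SCI label differed in firmness. The third control-labelled library, which stood apart in muscle, red cell and some neural markers, was the lowest of the 6 for each of them. Without it the log2 changes were 1.05 for miR-10b-5p (edgeR adjusted p = 0.000309), 0.68 for miR-10a-5p (0.0116) and 1.64 for miR-615-3p. With the red cell and muscle marker rows removed before scaling they were 1.18, 0.86 and 1.82. Removing marker rows acts on the scaling and the fit only, and leaves all other RNA from those cells in place. The part of red cells, muscle, neurons, white blood cells and mesenchyme in these results was not tested. With the miR-10 paralogs summed to 1 row the log2 change was 1.10 (edgeR adjusted p = 0.00506).

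**Figure D5:**
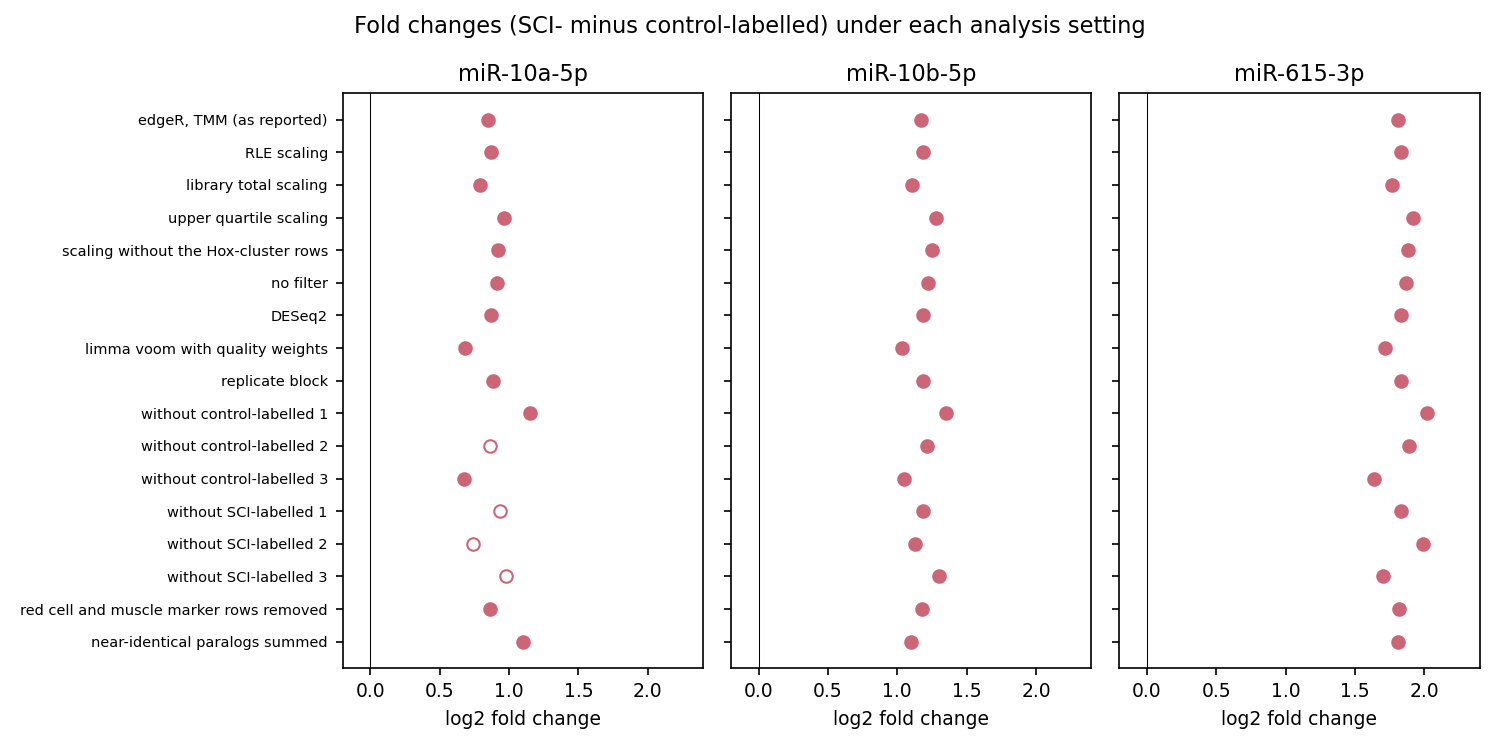
Log2 fold change (SCI- minus control-labelled) of miR-10a-5p, miR-10b-5p and miR-615-3p under the reported analysis and 16 alternatives, with filled points where the adjusted p was under 0.05. miR-10b-5p and miR-615-3p are filled throughout, and miR-10a-5p is open when control-labelled library 2 or 1 of the SCI-labelled libraries is left out. With paralogs summed, miR-10a-5p and miR-10b-5p show the same summed row.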

How the data were processed

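Small RNA from mouse spinal cord was sequenced in 6 libraries after library preparation from 3 µg of total RNA per the labels' protocols. The authors deposited whole-number read counts per mature miRNA without normalization, and a TPM column per library. The deposited TPM equal CPM computed on the column total to within 2.74e-05, so only the counts were used. Bowtie and mm10 are named in the submitters' processing notes; the sources used here name no version, miRBase release or treatment of multi-mapping reads. Columns were matched to samples through their descriptions.

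The tests ran in edgeR 4.0.16 under R 4.3.3: filterByExpr (minimum count 10) kept 614 of 1482 rows, libraries were scaled by TMM, and groups were compared by the robust quasi-likelihood F test with Benjamini-Hochberg adjustment over the 614 rows at 0.05. Log2 changes are SCI-labelled minus control-labelled. Arm use was tested with diffSpliceDGE, adjusted over 358 arms, and ratios by two-sided exact permutation. DESeq2 1.42.0, limma 3.58.1 (voom) and other settings served as alternatives, and the steps were tested on simulated data. All members with counts are described, with the 3 most abundant rows of each related list and the most similar rows. Members and lists were chosen with earlier results of these data known. The rows let-7d-5p, let-7j and miR-125a-3p and the ratios between seed groups were chosen after their values were seen. No 2 libraries agreed within sampling noise, and the study describes 3 mice per group, matching the library number, though no label ties a library to a mouse.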

Additional observations from a re-analysis of the deposited data

How the results depend on the processing

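The count of Hox-cluster rows called was 3 in the reported analysis and 2 or 3 in all 16 alternatives; it was 2 on leaving out control-labelled library 2 or 1 of the SCI-labelled libraries, and with paralogs summed, where fewer rows are left. Calls over the whole table ran from 141 (without SCI-labelled library 3) to 331 (without control-labelled library 3) when 1 library was left out, with 160 without SCI-labelled library 1, against 242. The number of Hox-cluster hairpins with a called arm difference was 3; it was 1 with no filter and 0 to 3 when 1 library was left out, the cause of which was not tested. Upper quartile scaling moved the median log2 change of all tested rows from -0.07 to 0.04, and the changes of miR-10b-5p, miR-10a-5p and miR-615-3p to 1.28, 0.97 and 1.92. With the replicate number as a block 190 rows of the table were called, the 3 members with them. By the arm test 2 Hox-cluster hairpins were then called (the miR-10b call was lost, diffSpliceDGE adjusted p = 0.0512). Library numbers are those of the sample titles, and the count columns of the control-labelled libraries carry other numbers in their names. Same-numbered libraries did not deviate together (correlations of -0.26, 0.17 and -0.18), and pairs with different numbers ran from -0.22 to 0.33. With 3 libraries per group these correlations cannot decide whether same-numbered libraries were paired. Depth limited miR-196b-3p, miR-196a-2-3p and miR-615-5p, which had at most 31 counts in any library.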
